A study of Mus musculus with 60 samples.

Results

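The 6 genes described here encode the mouse receptors that bind the constant part of IgG and IgE and the signalling chain most of them share: Fcgr1, Fcgr3 and Fcgr4 (activating IgG receptors), Fcgr2b (the inhibitory IgG receptor), Fcer1g (the common gamma chain) and Fcer2a (CD23, the low-affinity IgE receptor). They were found by gene symbol or alias in the platform annotation, which gave 12 probe sets of the 45037 analysed, each with 1 symbol, for 6 of 18193 genes. Fcgr2b had 5 probe sets, Fcgr1 and Fcer2a had 2 each, and Fcgr3, Fcgr4 and Fcer1g had 1 each. Of the 12, 11 reached a signal of 50 in 5 or more of the 30 mice and entered the tests across 38293 probe sets; the exception was Fcgr2b probe set 1447622_at, which averaged 18.5.

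Activating receptors pass their signal through an immunoreceptor tyrosine-based activation motif, which in mice is carried by the separate Fcer1g chain. Fcgr2b carries an inhibitory motif in its own tail, recruits the inositol phosphatase Inpp5d, and is the only classical IgG receptor of B cells, whereas macrophages and other myeloid cells carry it together with activating receptors. Fcer2a is a C-type lectin rather than an immunoglobulin-like receptor and is best known from follicular B cells.

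Spleen leukocytes were taken, untreated and uncultured, from female mice of 3 inbred strains at 4 and 2 weeks of age, with 5 samples in each of the 6 groups. NOD (nonobese diabetic) mice develop autoimmune diabetes later in life, NON is a related diabetes-resistant strain, and C57BL/6 (C57 below) is a more distant control. No group carried a transgene or a treatment. Each sample was hybridised to a 430A and a 430B array, and values are MAS 5.0 signals, a linear brightness scaled per array. The labels do not state whether a sample was 1 animal. The p-values thus rest on the spread between these samples, called mice below, which need not be the spread between animals.

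The leukocyte preparation was mixed. The summed signal of 6 B cell markers lay between 11687 and 35513 over all mice, that of 7 T cell markers between 1051 and 9871, that of 9 monocyte and macrophage markers between 9323 and 24858, and that of 8 neutrophil and precursor markers between 21249 and 119210. The NOD 4-week replicate 3 stood apart from its group, with a median correlation of 0.739 with the other 4 mice, against 0.847 to 0.859 for those mice. The Gapdh 3'/5' signal ratio, a measure of RNA integrity, ran from 0.744 to 1.30 in NOD mice, from 0.746 to 4.00 in NON mice and from 0.804 to 2.40 in C57 mice.

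In the GRCm38.p6 reference, 4 of the 6 genes lie close together on chromosome 1: Fcgr2b at chr1:170960558-170976071, Fcgr4 at chr1:171018926-171029761, Fcgr3 at chr1:171051169-171065915 and Fcer1g at chr1:171229572-171234349. Fcgr1 lies at chr3:96282909-96293969 and Fcer2a at chr8:3680280-3694174. Promoter stretches of the 3 activating receptors are shown because these are the members that signal through Fcer1g and their promoters share a short element. The letters GAGGAAG, a core that the myeloid and B cell factor PU.1 can bind, were searched on both strands of the RefSeq promoter windows (250 bases before to 50 after the first listed start of each gene). They occurred once in each of Fcgr4, Fcgr3 and Fcgr1, each time on the opposite strand, and in none of Fcgr2b, Fcer1g and Fcer2a; of 32851 promoter windows of the same length, 13.6% hold them. A second motif, TTCNNNGAA (bound by STAT factors), was searched in the same way and occurred only in Fcgr1, beside 8.3% of all windows. The stretches below run 5′ to 3′ along the gene, with the element, read here as its reverse complement, in capitals. They lie at chr1:171018883-171018929 (plus strand), chr1:171059384-171059430 (minus strand) and chr3:96293999-96294045 (minus strand), and the element starts 23, 7 and 56 bases before the first listed start, which for Fcgr3 (the first of 2) lies inside the annotated gene.
Fcgr4: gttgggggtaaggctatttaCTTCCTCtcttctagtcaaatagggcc
Fcgr3: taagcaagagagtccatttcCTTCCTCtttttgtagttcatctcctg
Fcgr1: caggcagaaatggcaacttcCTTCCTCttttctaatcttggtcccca

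The question of the study's design is which transcripts set NOD apart from both controls before insulitis. Across the 3 strains, 0 of the 11 tested Fc receptor probe sets passed the moderated F-test of limma at 4 weeks (adjusted p under 0.05, "called" below), against a background of 1.51% of all tested probe sets, and 0 of 11 passed at 2 weeks, against 1.66%. At an unadjusted p under 0.05 there were 4 of 11 at 4 weeks, beside 5122 of all 38293 tested probe sets. There were 2 of 11 at 2 weeks, beside 5402 of 38293. Each pairwise contrast had 0 to 3 of 11 at an unadjusted p under 0.05, beside 3614 to 5326 of 38293. None of the 11 was called in any pairwise contrast. The background shares at 4 weeks were 0.582% for NOD minus NON, 1.13% for NOD minus C57, 0.794% for NON minus C57 and 0.804% for NOD minus the mean of both controls. The same shares at 2 weeks were 0.546%, 0.841%, 1.56% and 0.499% in that order. The NOD contrasts share their NOD mice and are given side by side only.

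Fcgr4, an activating receptor of monocytes, macrophages and neutrophils, came closest. Its signal at 4 weeks was 332.3, 361, 264.5, 549.2 and 502.8 in NOD mice, against 216.3, 185.3, 188.1, 158.8 and 126 in NON mice and 386, 356.1, 225.4, 377.6 and 238.5 in C57 mice. All 5 NOD mice lay above all 5 NON mice (1.34% of all tested probe sets showed this), all 5 NON mice lay below all 5 C57 mice (1.84%), and NOD and C57 overlapped. The NOD mean was 402 ± 120, against 175 ± 34.1 in NON and 317 ± 78.3 in C57 (SD, n = 5 each). The NOD mean was thus 2.30-fold that of NON, a difference of 1.13 on the log2 scale (SE 0.24, 95% interval 0.61 to 1.65, adjusted p = 0.0549), called in 6 of 26 alternatives (adjusted p from 0.0096 to 0.191). NOD minus C57 was 0.32 (interval -0.20 to 0.84, adjusted p = 0.624) and NON minus C57 was -0.81 (interval -1.33 to -0.29, adjusted p = 0.207).

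The F-test for Fcgr4 at 4 weeks gave an adjusted p of 0.0592. That call was sensitive to the processing: over 26 alternatives the adjusted p ranged from 0.0102 to 0.150, and it was under 0.05 in 6. Without the NOD 4-week replicate 3, which stood apart from its group, it was 0.0303 and Fcgr4 was called. It was highest with the Gapdh 3'/5' ratio as a covariate, and that ratio was 3.15 and 2.31 in NON 4-week replicates 1 and 5, against 0.763 to 1.30 in the NOD mice of that age.

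The same order of strain means was seen for Fcgr4 at 2 weeks. The signals were 319.9, 262.4, 254, 233.6 and 431.6 in NOD mice, against 194.8, 97, 180.9, 213.3 and 195.9 in NON mice and 220.9, 215.3, 276, 214 and 203.8 in C57 mice. NOD lay above NON with no overlap (1.44% of all tested probe sets), and the C57 mice overlapped both. NOD minus NON was 0.75 on the log2 scale (SE 0.23, adjusted p = 0.234) and NOD minus C57 was 0.37 (adjusted p = 0.567). The 9 monocyte and macrophage markers had no member called across strains at 4 weeks, with a summed signal of 13180 to 22521 in NOD, 13200 to 24858 in NON, and 9323 to 14518 in C57. Lyz2, the brightest of them, had 4-week medians of 7625.1 in NOD and 10983.5 in NON. The medians of Cd14 and Itgam were also lower in NOD than in NON, whereas those of Csf1r, Adgre1, Cd68, Cd5l, Spic and Vcam1 were higher. The part of these cells in the Fcgr4 difference was not tested.

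In such mixed samples, fewer cells of a type and less RNA per cell cannot be told apart. As a second measurement, each receptor was therefore expressed per mouse relative to markers of B cells (Fcgr2b and Fcer2a) or of monocytes and macrophages (Fcgr2b, the activating receptors and Fcer1g). No level relative to neutrophil, NK cell or mast cell markers was computed, although such cells carry Fcgr3 and neutrophils carry Fcgr4, and the summed neutrophil markers at 4 weeks were 27970 to 49586 in NOD and 53004 to 79871 in NON. Relative to the 9 monocyte and macrophage markers, Fcgr4 at 4 weeks was -1.30 ± 0.36 in NOD and -2.21 ± 0.33 in NON (log2 units, SD, n = 5 each), with no overlap. The difference of 0.92 had the smallest p that 5 mice against 5 can give (two-sided exact permutation p = 0.00794, adjusted p = 0.159 over 60 such comparisons). The value for C57 was -0.93 ± 0.47, and NOD minus C57 was -0.36 (exact permutation p = 0.206, adjusted p = 0.476).

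Fcgr3, the activating receptor that NK cells, macrophages, neutrophils and mast cells carry, had another order of strains. At 4 weeks its signal was 297.4, 237, 237.8, 505.6 and 323.5 in NOD mice, against 634.1, 314.6, 600.4, 533.7 and 291.2 in NON mice and 237.6, 241.3, 221.7, 142.5 and 200.1 in C57 mice. NON lay above C57 with no overlap (1.52% of all tested probe sets), and NOD overlapped both. The means were 320 ± 110 in NOD mice, 475 ± 161 in NON mice and 209 ± 40.4 in C57 mice (SD, n = 5 each). NON minus C57 was 1.10 on the log2 scale (SE 0.28, 95% interval 0.51 to 1.69, adjusted p = 0.0981), and it was called in 2 of 26 alternatives. NOD minus NON was -0.54 (adjusted p = 0.510) and NOD minus C57 was 0.56 (adjusted p = 0.407), so that NOD minus the mean of the controls was 0.01 (interval -0.50 to 0.52).

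Neutrophil transcripts had a similar order at that age, and NK cell transcripts had it only in part. The summed signal of the 8 neutrophil and precursor markers was 27970 to 49586 in NOD, 53004 to 79871 in NON, and 21249 to 37176 in C57, and 3 of the 8 were called higher in NON than in C57. That of 4 NK cell markers was 2009 to 5040 in NOD, 4660 to 6138 in NON, and 2493 to 4500 in C57, with none of the 4 called between NON and C57. Of these, Ncr1 and Gzma had their highest median in NON, whereas Klrd1 and Nkg7 had it in C57. The part of either cell type in the Fcgr3 difference was not tested. At 2 weeks Fcgr3 averaged 274 ± 82.9 in NOD mice, 322 ± 57.1 in NON mice and 310 ± 138 in C57 mice, and all 3 strains overlapped (F-test adjusted p = 0.880). Relative to the monocyte and macrophage markers, Fcgr3 at 4 weeks was -1.62 ± 0.36 in NOD and -0.87 ± 0.23 in NON, with no overlap (difference -0.75, exact permutation p = 0.00794, adjusted p = 0.159). Fcgr3 and Fcgr4 thus had opposite strain orders among the controls at 4 weeks: NON above C57 for Fcgr3 and NON below C57 for Fcgr4. Across the 30 mice their log2 signals had a correlation of -0.20, and of 0.24 after the group means were removed, over arrays that both probe sets share.

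Fcgr1, the high-affinity IgG receptor of monocytes and macrophages, was read by a probe set on each array type, and the 2 did not follow each other (r = -0.08 over 30 mice, with the arrays matched by sample label). The 430B probe set 1436625_at averaged 514 ± 185 in NOD mice, 432 ± 166 in NON mice and 496 ± 54.5 in C57 mice at 4 weeks. At 2 weeks it averaged 486 ± 110 in NOD mice, 485 ± 132 in NON mice and 427 ± 76.4 in C57 mice. The dimmer 430A probe set 1417876_at averaged 114 ± 54.9 in NOD mice, 79.1 ± 33.4 in NON mice and 103 ± 14.3 in C57 mice at 4 weeks. Its 2-week means were 84.0 ± 26.6 in NOD mice, 67.9 ± 15.1 in NON mice and 67.5 ± 18.6 in C57 mice. The strains overlapped on both probe sets at both ages, with F-test adjusted p-values of 0.838 and 0.813 at 4 weeks and 0.881 and 0.822 at 2 weeks. At 4 weeks the 95% interval of NOD minus NON ran from -0.37 to 0.87 for 1436625_at and from -0.47 to 1.16 for 1417876_at. Intervals of that width do not show that the strains were equal.

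**Figure D1:**
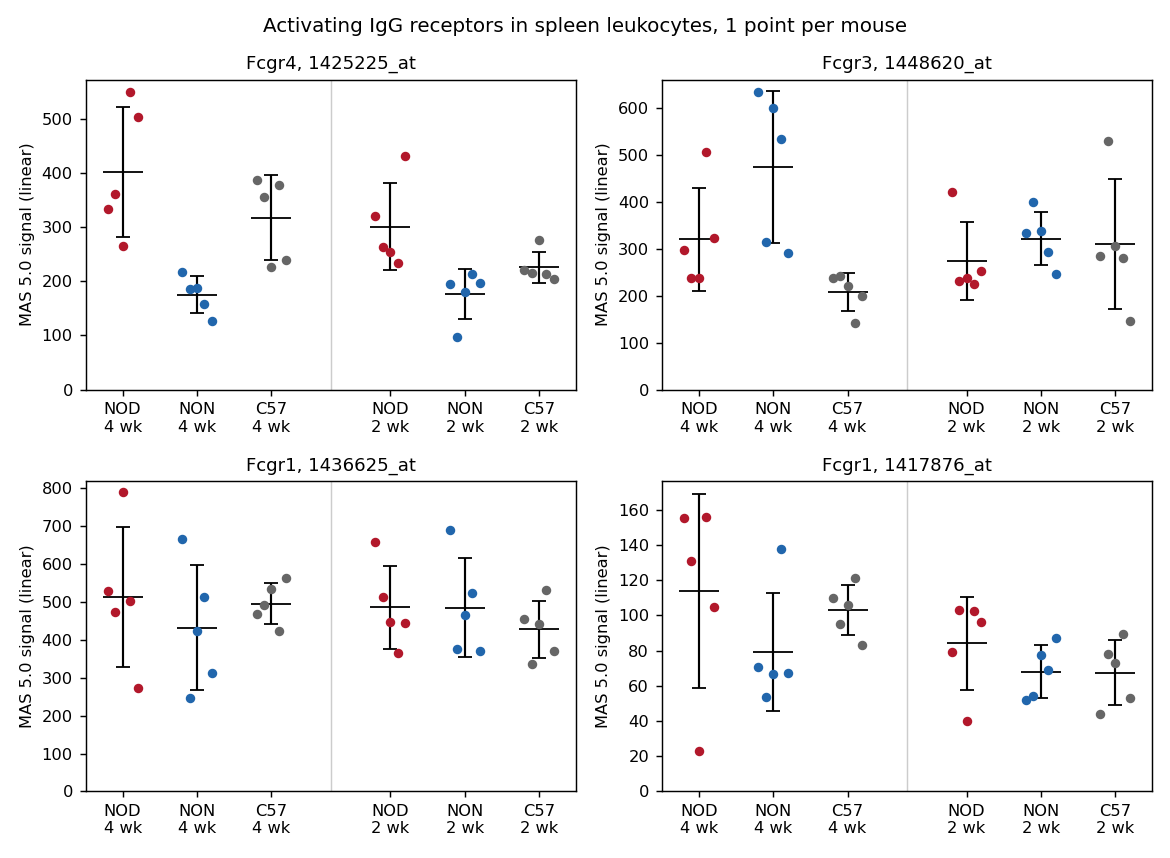
Signals of the activating IgG receptors in spleen leukocytes, 1 point per mouse, with the 4-week groups left and the 2-week groups right on the horizontal axis and the linear MAS 5.0 signal on the vertical axis; bars give the mean and SD of 5 mice. For Fcgr4 the NOD mice sit above the NON mice at both ages, for Fcgr3 the NON mice sit above the C57 mice at 4 weeks, and the strains overlap for both Fcgr1 probe sets.

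Fcer1g, the chain through which Fcgr1, Fcgr3 and Fcgr4 signal and which stabilises them at the cell surface, had overlapping signals in the 3 strains. Its signal at 4 weeks was 1440.7, 994.8, 824.8, 1833.1 and 1575 in NOD mice, against 1547.5, 883.2, 1677.6, 1257.1 and 855.3 in NON mice and 1357.6, 983.8, 844.6, 1537.7 and 1074.5 in C57 mice. No strain lay apart from another. NOD minus NON was 0.09 on the log2 scale (95% interval -0.49 to 0.68) and NOD minus C57 was 0.17 (interval -0.41 to 0.76), with an F-test adjusted p of 0.932. At 2 weeks the means were 1171 ± 479 in NOD mice, 930 ± 204 in NON mice and 1064 ± 104 in C57 mice (F-test adjusted p = 0.794). Within groups Fcer1g correlated with Fcgr3 at 0.56, with Fcgr4 at 0.30 and with the Fcgr1 probe sets at 0.12 and 0.26.

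The inhibitory receptor Fcgr2b was read by 4 tested probe sets, which correlated with each other at 0.45 to 0.74 across the 30 mice. The names of 2 of them, 1435477_s_at and 1455332_x_at, mark probes that may also detect related transcripts, and since Fcgr2b and Fcgr3 share much of their extracellular sequence, these 2 are uncertain as measures of Fcgr2b alone. Their correlation with the Fcgr3 probe set was 0.09 and 0.00. In the annotation 1435476_a_at, 1435477_s_at and 1455332_x_at share 1 source sequence, so the 4 tested probe sets are not all separate readings of the gene.

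At 4 weeks all 4 Fcgr2b probe sets had their lowest strain mean in NOD. On 1435477_s_at the signals were 1123.4, 996.8, 877.8, 880.8 and 963.2 in NOD mice, against 1371.7, 1569.5, 1469.5, 1267.4 and 1341 in NON mice and 1227.1, 1212.8, 1694.3, 1625.2 and 1124.6 in C57 mice. Every NOD mouse lay below every control mouse, by a margin over C57 of only 1123.4 against 1124.6; of all tested probe sets, 1.28% lay below NON and 2.15% below C57 in this way. The NOD mean was 968 ± 101, against 1404 ± 118 in NON and 1377 ± 262 in C57 (SD, n = 5 each), or 0.690-fold and 0.703-fold. NOD minus the mean of the controls was -0.51 on the log2 scale (SE 0.15, 95% interval -0.82 to -0.20, adjusted p = 0.143), which was not called. Over 26 alternatives the adjusted p ranged from 0.0412 to 0.372 and passed only in the test without moderation.

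The other 3 probe sets gave smaller or noisier differences. The brightest, 1435476_a_at, had signals of 1363.1, 1387.8, 1218, 1176.4 and 1249.9 in NOD mice, against 1424.2, 1492.6, 1535.4, 1476.1 and 1158 in NON mice and 1452.4, 1318.8, 1934.3, 1705.3 and 1711 in C57 mice. NOD overlapped both controls here, and NOD minus their mean was -0.24 (interval -0.54 to 0.06, adjusted p = 0.514). On 1451941_a_at NOD averaged 422 ± 149, against 492 ± 211 in NON and 745 ± 190 in C57. The 1455332_x_at means were 385 ± 78.0 in NOD mice, 481 ± 100 in NON mice and 444 ± 175 in C57 mice. NOD minus the mean of the controls was -0.51 (adjusted p = 0.493) and -0.22 (adjusted p = 0.717) on these 2.

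At 2 weeks the order differed: the lowest mean was that of NON on all 4 probe sets. The 1435476_a_at means were 1210 ± 90.0 in NOD mice, 1038 ± 137 in NON mice and 1530 ± 350 in C57 mice, and those of 1435477_s_at were 1024 ± 302 in NOD mice, 894 ± 351 in NON mice and 1330 ± 177 in C57 mice. NON minus C57 was -0.53 on 1435476_a_at (SE 0.19, adjusted p = 0.213) and -0.67 on 1435477_s_at (SE 0.29, adjusted p = 0.320). NOD minus the mean of the controls lay between -0.07 and 0.03 on the 4 probe sets. The B cell markers had the same order at 2 weeks, with mean summed signals of 24926 in NOD mice, 20548 in NON mice and 29365 in C57 mice and a median NON minus C57 difference of -0.54 over the 6 markers, none of which was called. Their part in the Fcgr2b differences was not tested.

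B cell transcripts showed a similar order at 4 weeks. The summed signal of the 6 B cell markers was 18600 to 28284 in NOD, 24552 to 31056 in NON, and 26772 to 35513 in C57, with none of the 6 called across strains. Relative to these markers, 1435477_s_at at 4 weeks was -1.39 ± 0.12 in NOD mice, -1.18 ± 0.23 in NON mice and -1.40 ± 0.25 in C57 mice (log2 units, SD, n = 5 each). The difference was -0.21 from NON (exact permutation p = 0.111, adjusted p = 0.435) and 0.01 from C57 (exact permutation p = 0.960, adjusted p = 0.992). For 1435476_a_at the same value was -0.99 ± 0.07 in NOD mice, -1.17 ± 0.36 in NON mice and -1.16 ± 0.09 in C57 mice. Against the B cell markers, the NOD mean thus lay above both controls on 1435476_a_at, and below NON and close to C57 on 1435477_s_at. Relative to the monocyte and macrophage markers, 1451941_a_at was -1.25 ± 0.31 in NOD and 0.27 ± 0.83 in C57 at 4 weeks, with no overlap (difference -1.53, exact permutation p = 0.00794, adjusted p = 0.159). Of the 60 relative levels compared, 0 passed after adjustment.

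**Figure D2:**
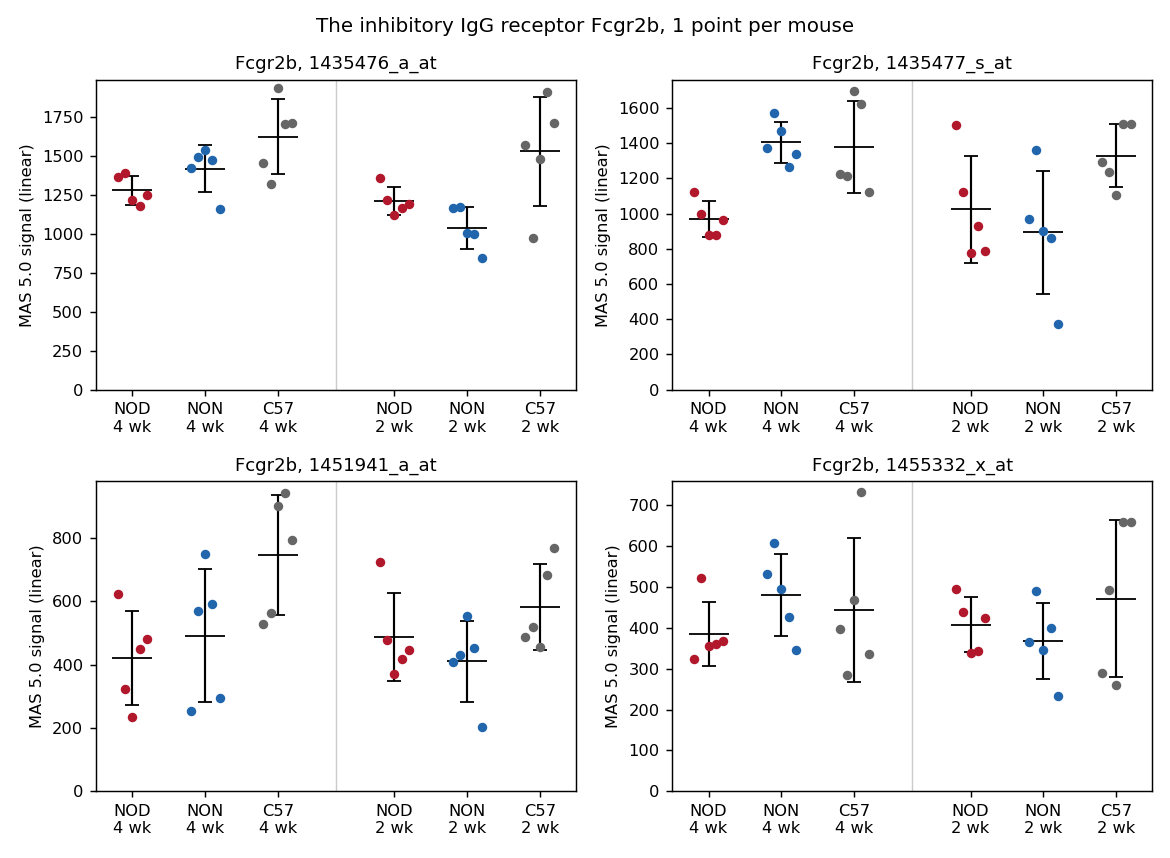
Signals of the 4 tested Fcgr2b probe sets, 1 point per mouse, with the 4-week groups left and the 2-week groups right and the linear MAS 5.0 signal on the vertical axis; bars give the mean and SD of 5 mice. At 4 weeks the NOD mean is the lowest in each panel, and only on 1435477_s_at do the NOD mice lie below all control mice.

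The balance of inhibitory to activating receptor within a mouse was taken as log2 of the brightest Fcgr2b probe set minus log2 of each activating receptor. In mixed leukocytes this value can also follow the mix of B cells and myeloid cells, and that part was not tested. The mean summed B cell markers at 4 weeks were 22415 in NOD, 27121 in NON and 30972 in C57. Those of monocytes and macrophages were 18519, 19117 and 12927 in that order. Fcgr2b minus Fcgr4 at 4 weeks was 1.69 ± 0.47 in NOD and 2.96 ± 0.19 in NON (SD, n = 5 each), with no overlap, and 2.35 ± 0.54 in C57, which overlapped NOD. NOD minus NON was -1.27 (two-sided exact permutation p = 0.00794, adjusted p = 0.0635 over 12 comparisons) and NOD minus C57 was -0.65 (exact permutation p = 0.127, adjusted p = 0.218). Taken singly at 4 weeks, NOD minus NON was -0.14 for this Fcgr2b probe set and 1.13 for Fcgr4, so most of the difference was that of Fcgr4. At 2 weeks Fcgr2b minus Fcgr4 was 2.01 ± 0.32 in NOD mice, 2.53 ± 0.56 in NON mice and 2.68 ± 0.42 in C57 mice, so that the NOD mean was the lowest at both ages. Fcgr2b minus Fcgr3 at 4 weeks was 2.02 ± 0.50 in NOD mice, 1.62 ± 0.44 in NON mice and 2.91 ± 0.44 in C57 mice, and NOD minus C57 was -0.89 (exact permutation p = 0.0159, adjusted p = 0.0635). Fcgr2b minus Fcgr1 at 2 weeks was 1.32 ± 0.22 in NOD mice, 1.11 ± 0.33 in NON mice and 1.80 ± 0.24 in C57 mice, and NOD minus C57 was -0.48 (exact permutation p = 0.0159, adjusted p = 0.0635). A single comparison could not pass alone, since the smallest exact p of 5 mice against 5 was 0.00794 over 12 comparisons. None of the 12 comparisons passed after adjustment, but 2 did without the NOD 2-week replicate 1, 4 without the NON 2-week replicate 5 and 4 without the C57 2-week replicate 2.

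**Figure D3:**
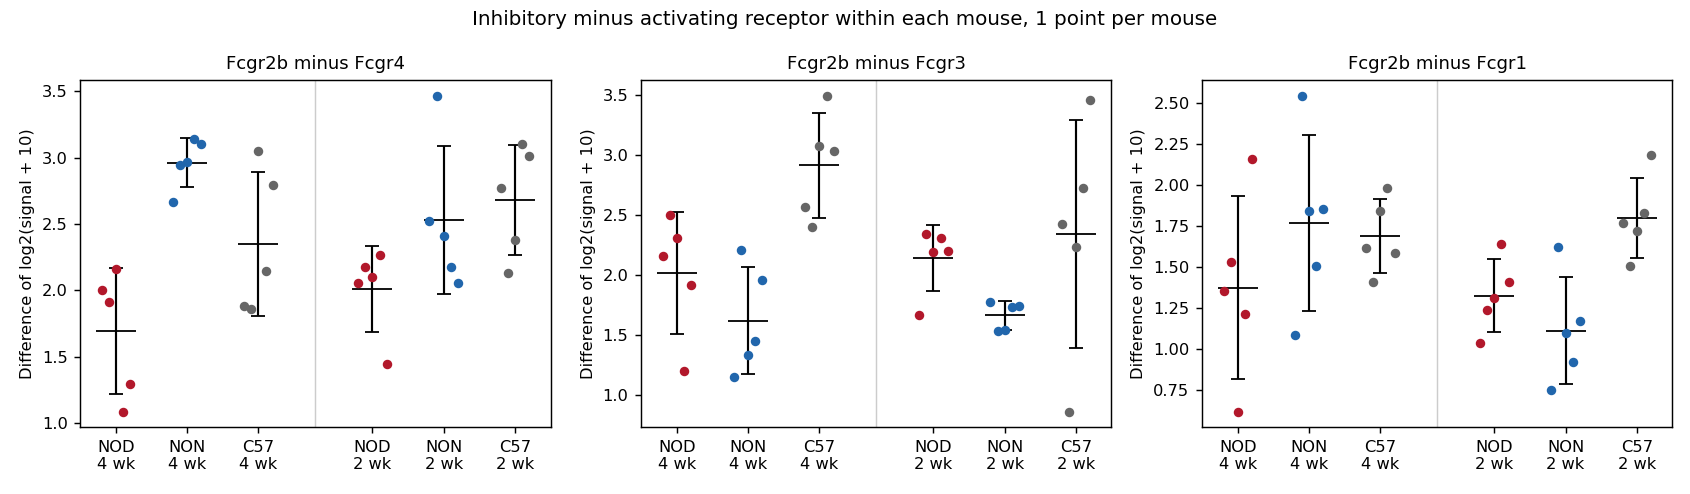
Fcgr2b (1435476_a_at) minus each activating receptor within a mouse, as a difference of log2(signal + 10) on the vertical axis, 1 point per mouse, with the 4-week groups left and the 2-week groups right; bars give the mean and SD of 5 mice. In the panel of Fcgr4 the 4-week NOD mice lie below all NON mice of that age, at 1.69 ± 0.47 against 2.96 ± 0.19.

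Fcer2a gave the calls of the age comparison. Its probe set 1422122_at was higher at 4 weeks than at 2 weeks in both control strains, and this was the only Fc receptor probe set of 11 called for age in either strain. In NON the signals were 696.7, 1020.1, 889.4, 862.1 and 847.4 at 4 weeks, against 298.5, 425.7, 549.2, 519.9 and 462.1 at 2 weeks. In C57 they were 881.2, 887.3, 1148.8, 963.6 and 1783.8 at 4 weeks, against 470.5, 329.5, 838.6, 733.6 and 427 at 2 weeks. The ages did not overlap in either strain, as for 1.67% of all tested probe sets in NON and 0.880% in C57. In NOD the signals were 560.6, 853.7, 755.7, 750.8 and 556.4 at 4 weeks, against 555.5, 525.4, 479.6, 739.4 and 673.7 at 2 weeks, and the ages overlapped.

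The 4-week mean was 1.91-fold the 2-week mean in NON (log2 difference 0.94, SE 0.24, adjusted p = 0.0389) and 2.02-fold in C57 (1.03, SE 0.24, adjusted p = 0.0378). In NOD the log2 difference was 0.22 (SE 0.24, 95% interval -0.26 to 0.70, adjusted p = 0.847). The share of all tested probe sets called higher at 4 weeks was 0.0418% for NOD, where 0 of the 11 were called, 0.812% for NON and 0.0575% for C57. The calls were narrow: over 36 alternatives the adjusted p ran from 0.0281 to 0.114 in NON, with 28 calls, and from 0.00983 to 0.188 in C57, with 30 calls. The NON call was lost without replicate 1, 4 or 5 of the 2-week mice or any of the 5 4-week mice, and the C57 call without replicate 1, 2 or 5 at 2 weeks or 3, 4 or 5 at 4 weeks.

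The age change in NOD was smaller than the mean change of the controls by 0.77 on the log2 scale (SE 0.29, 95% interval -1.36 to -0.17, adjusted p = 0.771), so the strains were not shown to differ in it. No probe set of the 38293 passed this test of the difference (0%), with 2374 at an unadjusted p under 0.05, of which 2 were the Fcer2a probe sets. The second Fcer2a probe set, 1451713_a_at, averaged 194 ± 65.8 at 4 weeks and 298 ± 128 at 2 weeks in NOD, 268 ± 118 and 189 ± 157 in NON, and 290 ± 120 and 135 ± 91.6 in C57. Its age differences of -0.55 in NOD mice, 0.91 in NON mice and 1.21 in C57 mice had the signs of the brighter probe set in the controls and the opposite sign in NOD, and none was called (adjusted p = 0.845, 0.550 and 0.731). It was called in NON only with the Gapdh ratio as a covariate (adjusted p = 0.0176, over a range of 0.0176 to 0.882).

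Markers of follicular and marginal zone B cells are given beside this result. The summed signal of 4 such markers (Cr2, Cd1d1, Cd83 and S1pr3) was 4026 to 7510 at 4 weeks and 3063 to 5498 at 2 weeks in NOD, 4178 to 5337 and 1426 to 3358 in NON, and 4406 to 5038 and 3021 to 3572 in C57. Of the 4, Cr2, the complement receptor of these cells, was called higher with age in NON and none was called in C57 or NOD. The summed marker signal thus lay higher at 4 weeks without overlap in NON and C57, as did Fcer2a, whereas in NOD its mean was 5807 at 4 weeks and 4194 at 2 weeks and was the highest of the 3 strains at 4 weeks, when that of Fcer2a was the lowest. Of these markers only S1pr3 had its highest 4-week median in NOD (2918.7, against 1227.3 in NON and 1134.9 in C57). The 4-week medians of Cr2, Cd83 and, narrowly, Cd1d1 were lowest in NOD, so the high NOD sum reflected S1pr3. The part of these cells in the Fcer2a change was not tested. The summed signal of the 6 B cell markers was 24552 to 31056 at 4 weeks and 11687 to 26582 at 2 weeks in NON, and 26772 to 35513 and 26542 to 34863 in C57. In NOD that sum was 18600 to 28284 at 4 weeks and 19886 to 30413 at 2 weeks.

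Between strains, Fcer2a on 1422122_at at 4 weeks averaged 695 ± 132 in NOD mice, 863 ± 115 in NON mice and 1133 ± 380 in C57 mice. NOD lay below C57 with no overlap (0.614-fold, log2 difference -0.66, SE 0.22, adjusted p = 0.201), and overlapped NON (-0.32, adjusted p = 0.644). Relative to the B cell markers it was -1.88 ± 0.26 in NOD mice, -1.88 ± 0.20 in NON mice and -1.71 ± 0.32 in C57 mice, with differences of 0.00 from NON and -0.16 from C57 (exact permutation p = 0.984 and 0.437, adjusted p = 0.992 and 0.728). At 2 weeks the means were 595 ± 108 in NOD mice, 451 ± 98.0 in NON mice and 560 ± 216 in C57 mice (F-test adjusted p = 0.680).

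**Figure D4:**
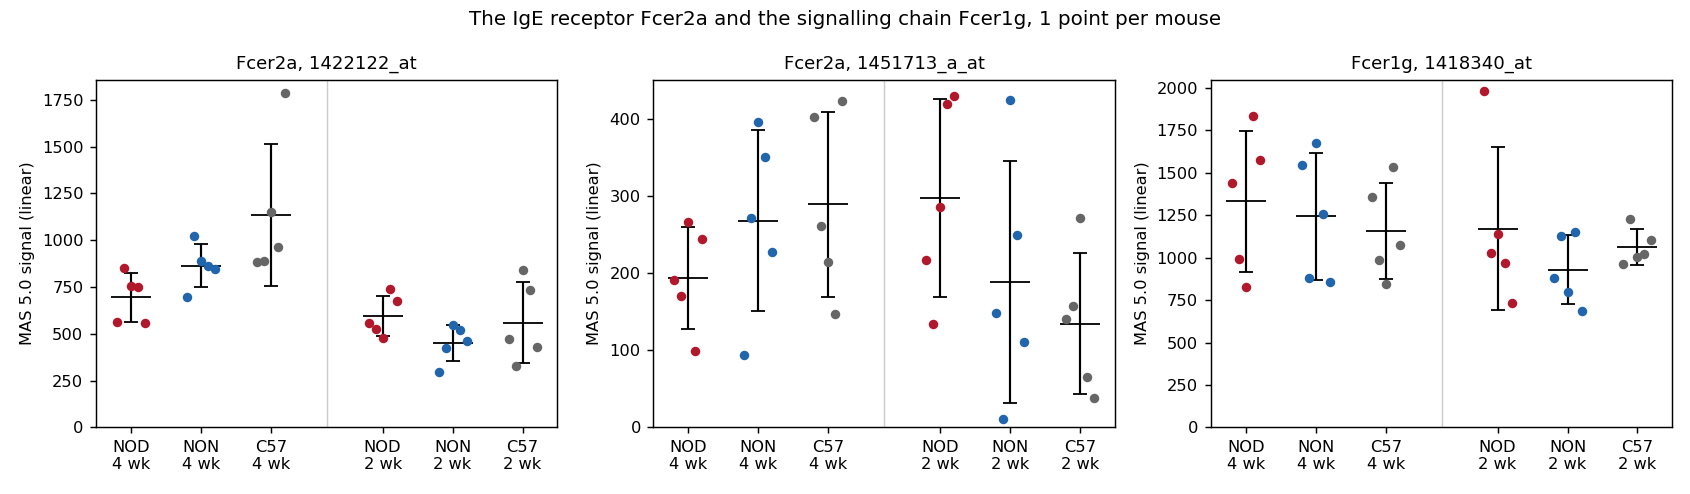
Signals of the 2 Fcer2a probe sets and of Fcer1g, 1 point per mouse, with the 4-week groups left and the 2-week groups right and the linear MAS 5.0 signal on the vertical axis; bars give the mean and SD of 5 mice. On 1422122_at the 4-week NON and C57 mice lie above the 2-week mice of their strain, while the NOD ages overlap.

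For the IgG receptors, age differences were not called in any strain. Of all 11 tested probe sets, those of Fcer1g and Fcer2a included, 7 had a higher mean log2 signal at 4 weeks in NOD, against 10 in NON and 9 in C57. The median log2 age difference over all 38293 tested probe sets was -0.002 in NOD, 0.003 in NON and 0.027 in C57. The largest IgG receptor value was that of Fcgr2b 1435477_s_at in NON, which averaged 1404 ± 118 at 4 weeks against 894 ± 351 at 2 weeks (log2 difference 0.75, SE 0.23, adjusted p = 0.109). Without the NON 2-week replicate 2, which had the highest 2-week signal of that group and a Gapdh 3'/5' ratio of 4.00, its adjusted p was 0.0283 (range over 36 alternatives 0.0283 to 0.353). Fcgr4 had an age difference of 0.39 in NOD mice, 0.01 in NON mice and 0.44 in C57 mice (adjusted p = 0.656, 0.989 and 0.793).

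**Figure D5:**
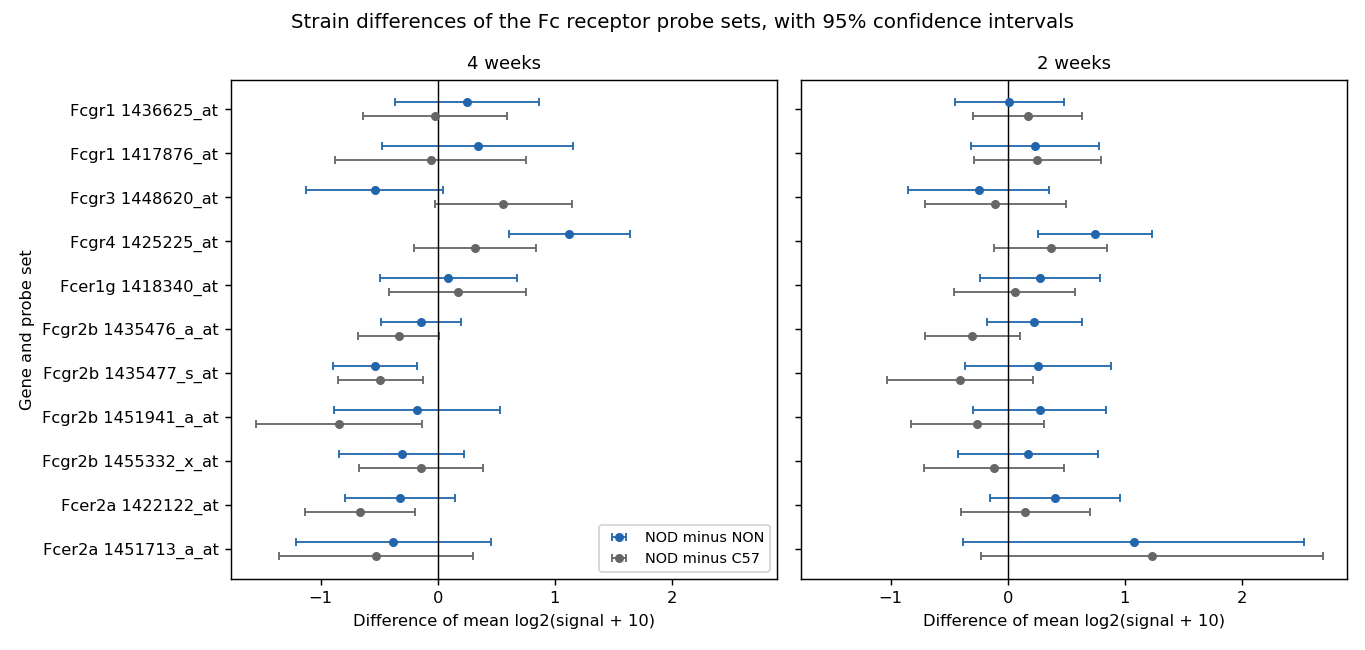
Differences of mean log2(signal + 10) between NOD and each control strain on the horizontal axis, for the 11 tested probe sets on the vertical axis, at 4 weeks left and 2 weeks right; points are the limma estimates and bars their 95% confidence intervals. At 4 weeks the interval of Fcgr4 against NON (0.61 to 1.65) and those of Fcgr2b 1435477_s_at against NON (-0.89 to -0.17) and against C57 (-0.85 to -0.13) do not include 0, nor do those of Fcgr2b 1451941_a_at and Fcer2a 1422122_at against C57.

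The genes around the receptors were described from lists of signalling partners, relatives, immunoglobulin heavy chain genes and chromosomal neighbours. Of 29 genes that relay or restrain Fc receptor signals (kinases such as Syk, adaptors such as Lat, and inhibitory phosphatases such as Inpp5d and Ptpn6), 26 were tested and 0 were called across strains at either age. Syk, the kinase that docks on phosphorylated activation motifs, averaged 1614 ± 262 in NOD mice, 2312 ± 655 in NON mice and 2563 ± 602 in C57 mice at 4 weeks (F-test adjusted p = 0.372). Inpp5d, the phosphatase that Fcgr2b recruits, averaged 1106 ± 92.8 in NOD mice, 1084 ± 115 in NON mice and 1201 ± 274 in C57 mice (adjusted p = 0.918). The median NOD minus control difference at 4 weeks was 0.03 for 4 proximal kinases, -0.22 for 15 adaptors and phospholipases and -0.03 for 7 inhibitory effectors, against 0.05 over all tested probe sets. With age, 2 of the 26 were called higher in NON, beside 0.812% of all tested probe sets (Fyn and Lat, a Src-family kinase and an adaptor well known from T cells), and none in C57 or NOD. Of 7 T cell markers, 5 were also called higher with age in NON, with a summed signal of 3875 to 4952 at 4 weeks against 1051 to 2605 at 2 weeks, and their part in these calls was not tested.

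Strain differences were called among other immunoglobulin-related receptors, in 2 of 15 by the F-test at each age, beside 1.51% of all tested probe sets at 4 weeks and 1.66% at 2 weeks. In NOD minus C57 at 4 weeks, 5 of the 15 were called (background 1.13%), with Fcrla, Cd72, Trim21 and Fcmr lower and Lgals3 higher in NOD, and in NON minus C57 at 2 weeks 2 were called lower in NON (background 1.56%). Fcrla, an Fc receptor-like protein that B cells keep inside the cell and whose gene ends 28.3 kb before Fcgr2b, averaged 573 ± 154 in NOD mice, 1048 ± 349 in NON mice and 1906 ± 441 in C57 mice at 4 weeks (F-test adjusted p = 0.00688), and fell by 1.28 on the log2 scale in NOD relative to both controls averaged (adjusted p = 0.0129). At 2 weeks Fcrla averaged 1058 ± 293 in NOD mice, 776 ± 243 in NON mice and 2080 ± 323 in C57 mice (F-test adjusted p = 0.0200), with NON as the lowest strain. Cd72, an inhibitory B cell receptor with a cytoplasmic motif like that of Fcgr2b, averaged 561 ± 105 in NOD mice, 1549 ± 415 in NON mice and 1311 ± 190 in C57 mice at 4 weeks, and fell by 1.32 in NOD against the controls (adjusted p = 0.00218). Trim21, a cytosolic antibody receptor, averaged 324 ± 26.2 in NOD mice, 263 ± 48.1 in NON mice and 579 ± 63.2 in C57 mice at 2 weeks (F-test adjusted p = 0.00388). The median NOD minus control difference of the 15 was -0.23 at 4 weeks.

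Of 19 tested genes that lie beside the chromosome 1 cluster, Fcrla was the only one called across strains, at both ages, and the median NOD minus control difference of the 19 at 4 weeks was 0.00. Among 9 genes whose products pair with Fcer1g or carry the same kind of motif, Cd247, the zeta chain of the T cell receptor, was called at 2 weeks (184 ± 56.6 in NOD mice, 111 ± 12.5 in NON mice and 270 ± 62.5 in C57 mice, F-test adjusted p = 0.0342) and none at 4 weeks. The summed T cell markers at 2 weeks were 3228 to 6383 in NOD, 1051 to 2605 in NON, and 4251 to 7799 in C57, and their part in the Cd247 difference was not tested. Tyrobp, the related myeloid chain, averaged 3773 ± 820 in NOD mice, 4168 ± 1049 in NON mice and 3115 ± 646 in C57 mice at 4 weeks (adjusted p = 0.626).

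Immunoglobulin heavy chain constant genes were read by 14 probe sets, for IgM, IgA and an IgG subclass (Ighm, Igha and Ighg3), of which 12 had a single gene symbol. IgM and IgA are not ligands of the receptors described here, and no IgE heavy chain gene was among the probe sets. The ligands were thus hardly covered by these 14 probe sets, and the calls below are of IgM and IgA genes. The paper also lists probe sets of an IgG heavy chain gene (Ighg). It reports them as higher at 4 weeks than at 2 weeks in NOD but not in the control strains. Those probe sets were not among the 14, and their values were not examined here. One Ighm probe set, 1425385_a_at, was called across strains at 4 weeks, with means of 704 ± 513 in NOD mice, 18.6 ± 15.8 in NON mice and 221 ± 207 in C57 mice (F-test adjusted p = 0.00617). With age, 3 probe sets, all of Igha, were called higher in NOD and 3 in NON, and 0 in C57, beside 0.0418%, 0.812% and 0.0575% of all tested probe sets. On Igha 1429381_x_at the 4-week mean was 2316 in NOD mice, 1976 in NON mice and 798 in C57 mice, against 194 in NOD mice, 151 in NON mice and 179 in C57 mice at 2 weeks. The summed signal of 4 plasma cell markers was 6356 to 9906 at 4 weeks and 2911 to 6954 at 2 weeks in NOD, and 5900 to 10263 and 2130 to 3540 in NON, with 1 of the 4 called higher with age in NON and none in NOD, and their part in the Igha calls was not tested.

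Genes with the pattern most like each receptor were taken as the 3 probe sets of other genes with the highest correlation over the 30 mice, as a description across arrays that share samples and scaling. Fcer1g was most like Tyrobp (r = 0.80), Pilrb1 (0.74) and Plbd1 (0.73), and these values after removal of the group means were 0.81, 0.77 and 0.81. Fcgr3 was most like Alox5ap, which is needed for leukotriene synthesis (0.77), the chemokine Ccl6 (0.73) and Sap30 (0.72). After removal of the group means these were 0.82, 0.65 and 0.72. Fcgr4 was most like Plxnc1, a semaphorin receptor (0.85), Ackr2 (0.80) and Enc1 (0.79), which fell to 0.60, 0.58 and 0.67. Fcgr2b was most like Lsp1, a leukocyte actin-binding protein (0.88), Sash3 (0.83) and B3gnt5 (0.83), which fell to 0.76, 0.60 and 0.63 in the same way. Fcer2a was most like Man1a (0.79), AW112010 (0.77) and Cr2 (0.77), which were 0.42, 0.39 and 0.46 after removal of the group means. Fcgr1 had lower values, with Ank3, 1810012K16Rik and Zdbf2 at 0.62 to 0.63, which were 0.66, 0.69 and 0.62 after removal of the group means.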

How the data were processed

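Total RNA of spleen leukocytes from 30 samples was hybridised to 60 Affymetrix arrays (430A and 430B). The authors computed signal intensity with MAS 5.0 and scaled each array globally; the deposited values are linear, and their trimmed mean (2% cut at each end) was 250.0 to 250.1 on every array. Per the methods the target was another value, which does not alter comparisons between arrays. Present and marginal calls were not used here. Array control probe sets were left out, as were 100 430B probe sets shared with 430A. Symbols came from the platform annotation (34945 probe sets with 1 symbol, 932 with several, 9160 with none).

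Signals were analysed as log2(signal + 10) in probe sets with a signal of at least 50 in at least 5 mice. limma 3.58.1 (R 4.3.3) gave the moderated F-test across strains within an age (15 mice), its pairwise contrasts, and age changes from 1 fit over 6 groups, with Benjamini-Hochberg adjustment over 38293 probe sets. The script was tested on simulated data. Relative levels and ratios were tested by exact permutation (scipy 1.17.1), with the brightest probe set per marker gene. Array number limits the precision. All probe sets of the 6 genes were named; listed genes were named where called across strains or in NOD against the controls, or where their role had to be given. Fyn, Lat, Cr2, Fcmr, Lgals3 and the Igha probe set were named after their values were seen. The members and lists were chosen with earlier results of these data known. Samples with the same number were not treated as pairs in the main tests. Of same-numbered pairs, 8 of 75 deviated together (r over 0.1), with a median r of 0.037. Of pairs with other numbers, 10 of 300 did so, with a median r of -0.009, so same-numbered samples were somewhat more alike. Alternatives were other filters, pseudocounts, normalization, variance models, a Gapdh 3'/5' covariate, a replicate block and leaving out each mouse.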

Additional observations from a re-analysis of the deposited data

Results flagged for a closer look

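In 10 of 72 groups of 5 mice, 1 mouse lay far from the other 4, with a gap to its nearest neighbour above Dixon's critical share of 0.71 of the group's range on the log2(signal + 10) scale; chance gives about 1 in 20 groups, or 3.6 here. For Fcgr1 1417876_at these were NOD replicate 3 at 4 weeks (23.1), which is the mouse that stood apart from its group over all probe sets, NOD replicate 3 at 2 weeks (39.7) and NON replicate 4 at 4 weeks (137.8). For Fcgr4 they were NON replicate 2 at 2 weeks (97), whose Gapdh 3'/5' ratio of 4.00 was the highest of all mice, and C57 replicate 3 at 2 weeks (276). For Fcgr3 it was NOD replicate 1 at 2 weeks (421.2), which also had the highest Fcer1g signal of its group (1985.4). For Fcgr2b they were NON replicate 5 at 4 weeks on 1435476_a_at (1158) and NOD replicate 2 at 4 weeks on 1455332_x_at (521.7). The dim Fcgr2b probe set 1447622_at, which was not tested, had NON replicate 1 (94.7) and C57 replicate 3 (62.6), both at 4 weeks, while the remaining 4-week mice of all strains lay at 10.8 or below.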

How the results depend on the processing

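The counts of Fc receptor probe sets called across strains were 0 at 2 weeks under all 26 alternatives. At 4 weeks the count was 1, always Fcgr4, with the stricter filter, a pseudocount of 50, the array types adjusted apart, 1 fit over both ages, a trend in the mean signal, and without NOD replicate 3 (range 0 to 1 when leaving out 1 mouse). The age count in NON was 2 with the Gapdh 3'/5' covariate and 0 to 2 when leaving out 1 mouse, and that in C57 was 0 to 1. The inhibitory to activating comparisons called were 0 to 4 when leaving out 1 mouse: 2 without NOD 2-week replicate 1, and 4 without NON 2-week replicate 5 or C57 2-week replicate 2. With the replicate number as a block the count was 0 at both ages, and the age counts stayed at 1 in NON and 1 in C57; 12 of 30 mice correlated best with a mouse of their own number, and the block changed no call. Single-gene values were counted once per value and alternative: 0 changed sign while called, 21 passed only under the alternative and 14 were lost under it. Among the Fc receptor probe sets, the only calls in the main fits were those of Fcer2a with age in NON and C57. The same value was thus counted more than once. The causes were not tested. With 5 mice a group, relative levels could not reach an adjusted p under 0.05 from a single comparison, since the smallest exact p was 0.00794 over 60 comparisons. The same held for the inhibitory to activating comparisons, of which there were 12.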
